A study of Gossypium hirsutum with 18 samples.

Results

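Ovules of the fuzzless and lintless cotton mutant Xu142fl were compared with ovules of the fiber-bearing line Xu142 on the day of flower opening, 0 days post-anthesis (DPA). All genes that the authors' deposited table lists for that day were taken, 1366 of the 57326 genes tested, and 1366 of the 11153 genes listed on any of the 3 days of the series. The series holds 18 RNA-seq libraries of upland cotton (Gossypium hirsutum) ovules, from both genotypes at -1, 0 and 1 DPA, and its title concerns a histone mark in fiber initiation. The groups used here are Xu142fl ovules at 0 DPA and Xu142 ovules at 0 DPA, with 3 libraries each. Both were of total RNA from whole ovules with no treatment, and the labels name no transgene in either line. The labels do not say that replicates came from separate plants, so p-values reflect only the spread among these libraries, part of which may be technical.

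Cotton fibers are hairs of single cells that grow out of the ovule epidermis around flower opening. An initial swells, lays down a waxy cuticle and loosens its wall while actin and microtubules direct its growth. In Arabidopsis, homeodomain-leucine zipper factors of class IV and MYB factors switch epidermal cells to hair and cuticle programs, and ethylene, gibberellin and auxin act on fiber growth in cotton. In whole ovules, fewer cells of a type and less RNA per cell cannot be told apart.

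In Xu142fl ovules, transcripts for class IV homeodomain factors, MYB factors, waxes, cuticle, wall loosening and the cytoskeleton were mostly lower. Transcripts for ethylene receptor 2 and the kinase CTR1, most AP2/ERF factors, WRKY factors, calcium signalling and 10 of 16 listed receptor-like kinases were higher. A refit with edgeR, described below, called 4 of the 12 higher AP2/ERF factors, where it called 398 of all 502 higher genes. It called neither copy of ethylene receptor 2. In the authors' deposited table, 1366 genes were called, 2.38% of those tested. Of these, 502 were higher in Xu142fl (0.876% of those tested) and 864 were lower (1.51%), where called means an adjusted p under 0.05 and a deposited log2 fold change of at least 1 in size. The highest adjusted p in the authors' deposited table was 0.0131. The log2 ratio used below, of the Xu142fl mean over the Xu142 mean, had a median of -1.77 over all listed genes, of 2.21 over the higher genes and of -2.92 over the lower genes.

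Values are normalised reads, which are read counts divided by 1 factor per library, and they are set side by side within a gene and not between genes. Since the table holds called genes only, a gene that is not in it gives no value at 0 DPA. Size factors taken from the listed genes themselves moved the median log2 ratio by 1.12 (TMM) or 1.57 (DESeq2), and the share of higher genes among the called ones was 62.3% (501 higher and 303 lower) and 74.4% (499 higher and 172 lower), against 36.7% in the table. Under the DESeq2 factors 122 of the 864 lower genes turned to higher, and under the TMM factors 0 did. Such factors bring the middle of the list nearer to 0 by construction and raise the log2 ratios nearly alike. A turn given below therefore mostly marks a lower gene with a small log2 ratio, and a group with 0 turned gains no separate support from it. Recovered reads over the listed genes were 130502, 157465 and 149736 in the Xu142fl libraries and 293946, 346187 and 216351 in the Xu142 libraries, which are sums over listed genes and not library depths.

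The third Xu142 library stood apart from the other Xu142 libraries. It was the lowest of the 3 in 569 of the 864 lower genes (65.9%), with a median of 82.0% of its group mean, and without it the median log2 ratio of all listed genes was -1.78. The first Xu142fl library was the highest of its group in 450 of the 832 lower genes with a read in Xu142fl (54.1%), with a median of 115% of the group mean, and without it the median log2 ratio was -1.81. All 3 Xu142 libraries also differed from the Xu142 libraries of the days before and after in transcripts that Xu142 otherwise nearly lacked. Of 98 transcripts that were higher in Xu142fl on all 3 days, with at least 40 normalised reads there each day, and stood in Xu142 at 5% or less of their Xu142fl level at -1 and 1 DPA, 45 stood at 10% or more at 0 DPA. The median of those 45 was 24.7%, 22.8% and 21.97% in the 3 Xu142 libraries, while 51 of the 98 stayed under 5%. Of the 13 transcripts of the mirrored kind, lower in Xu142fl on all 3 days, 0 stood at 10% or more in Xu142fl. Whether the Xu142 libraries of 0 DPA hold some RNA of Xu142fl was not tested, nor was the part of this in the log2 ratios, so every Xu142 value and ratio at 0 DPA below carries that limit.

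**Figure D1:**
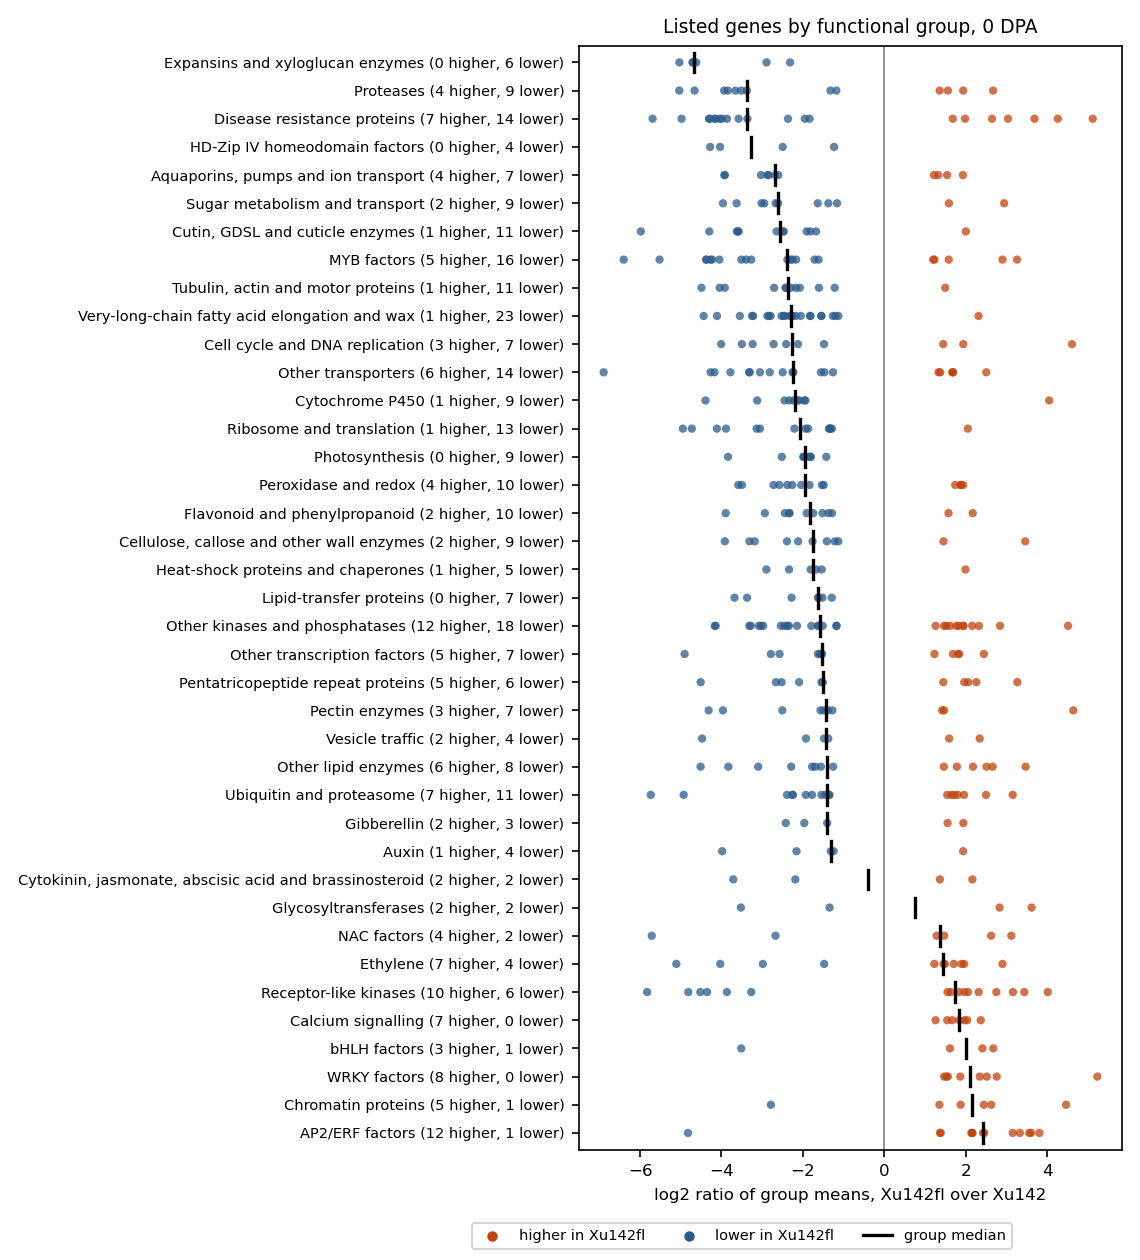
Log2 ratio of the Xu142fl mean over the Xu142 mean (x axis) for each listed gene (points), by functional group of at least 4 members (rows), with the group median as a black bar. Points right of 0 are higher in Xu142fl and points left of 0 are lower, genes at 0 reads in a group are drawn at their bound, and expansins and xyloglucan enzymes have the lowest median, -4.66.

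The homeodomain factors that specify epidermis and hairs were lower in Xu142fl in all 4 listed copies, and 1 of the 4 turned under DESeq2 factors from the listed genes. HDG11, a class IV factor that in Arabidopsis acts on trichome branching, had 52.8, 19.4 and 18.6 normalised reads in the Xu142fl libraries, against 588, 633 and 538 in the Xu142 libraries for its D copy (Gh_D12G292500, chromosome D12, 62292775 to 62298304). The groups lay far apart, and the first Xu142fl library was the highest of its group. The log2 ratio was -4.28 ± 0.54, or -4.95 without Xu142fl replicate 1, with an adjusted p of 1.64e-42 in the authors' deposited table. The A copy (Gh_A12G298900, chromosome A12, 105389156 to 105394596) had 39.3, 17.6 and 16.6 in Xu142fl and 382, 457 and 365 in Xu142, a log2 ratio of -4.03 ± 0.45. PROTODERMAL FACTOR 2 (PDF2), which in Arabidopsis keeps epidermal identity, had 491, 383 and 315 normalised reads in the Xu142fl libraries, against 2195, 2313 and 2195 in the Xu142 libraries for Gh_A06G172400. The nearest libraries of the groups were 4.47-fold apart, and the Xu142 libraries were nearly alike. The second PDF2 copy, Gh_D10G015500, had a smaller gap, with 516, 411 and 334 in Xu142fl and 1012, 1015 and 936 in Xu142 and a log2 ratio of -1.23 ± 0.19. It was the copy that turned under DESeq2 factors, to 0.31.

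MYB factors were mostly lower, with 5 of 21 listed genes higher and 16 lower, a median log2 ratio of -2.38, and 0 of the 16 turned under DESeq2 or TMM factors. The largest set of copies was MYB39, which in Arabidopsis activates suberin genes of the root endodermis, and 5 of its 6 listed copies were lower. Gh_A04G171200 had 120.1, 19.4 and 38.2 normalised reads in the Xu142fl libraries, against 1072, 1149.8 and 727 in the Xu142 libraries. Its Xu142fl libraries varied widely among themselves and still lay below all Xu142 libraries, and the log2 ratio of -4.05 ± 0.78 was -5.09 without Xu142fl replicate 1. Gh_A13G083900 had 34.8, 16.7 and 10.8 in Xu142fl and 450.3, 546 and 297 in Xu142, a log2 ratio of -4.38 ± 0.56 that was -4.97 without Xu142fl replicate 1. Its neighbour Gh_A13G083800 stood at 6.74, 4.63 and 2.94 in Xu142fl and 89.2, 113 and 66.0 in Xu142, and Gh_A05G317300 at 4.49, 3.70 and 1.96 in Xu142fl and 85.2, 83.5 and 41.2 in Xu142. In all of these the third Xu142 library was the lowest of its group. The copy Gh_D12G181200 stood at 131, 86.1 and 82.2 in Xu142fl and 568, 511 and 265 in Xu142. The 1 copy that went the other way, Gh_D07G153400, had 164, 181 and 147 in Xu142fl and 71.0, 76.2 and 61.8 in Xu142, a log2 ratio of 1.24 ± 0.12. Myb-related protein 306, whose Arabidopsis relatives act on wax and cuticle, was split as well, with 46.0, 13.0 and 16.6 in Xu142fl and 284, 327 and 186 in Xu142 for Gh_D13G184900 and 85.3, 76.8 and 68.5 in Xu142fl and 27.4, 30.9 and 18.6 in Xu142 for Gh_D11G034900. The log2 ratio of Gh_D13G184900, -3.40 ± 0.64, was -4.17 without Xu142fl replicate 1. A further gene of that name, on chromosome A13, was also lower, with a log2 ratio of -5.52. Among other factors, the putative bHLH086 (Gh_A07G082900), named after an Arabidopsis regulator family that includes root-hair factors, stood at 10.1, 2.78 and 1.96 in Xu142fl and 65.9, 65.3 and 38.1 in Xu142, a log2 ratio of -3.51 ± 0.79 that was -4.58 without Xu142fl replicate 1. The putative homeodomain factor ATHB-51 (Gh_D09G153200) had 2.25, 0 and 3.92 in Xu142fl and 71.0, 81.7 and 32.0 in Xu142, a log2 ratio of -4.91 ± 0.87 that was -5.78 without Xu142fl replicate 3.

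Genes that lengthen fatty acids and turn them into surface wax were lower in Xu142fl in 23 of 24 listed cases, with a median log2 ratio of -2.30, and 5 of the 23 turned under DESeq2 factors from the listed genes. The edgeR refit, a quasi-likelihood test of the recovered reads with Benjamini-Hochberg adjustment over all genes tested, called 22 of the 24, where it called 1144 of all 1366 listed genes. 3-ketoacyl-CoA synthase 9 (KCS9), which starts each round of chain elongation, had 14.6, 15.7 and 3.92 normalised reads in the Xu142fl libraries, against 262, 311 and 169 in the Xu142 libraries for the A copy (Gh_A01G004600, chromosome A01, 364192 to 365673). The D copy (Gh_D01G004700) had 43.8, 45.3 and 26.4 in Xu142fl and 426, 451 and 223 in Xu142. Log2 ratios were -4.44 ± 0.53 for the A copy and -3.25 ± 0.36 for the D copy, with the third library lowest in both groups. KCS19 (Gh_A06G196400) stood at 26.9, 23.1 and 12.7 in Xu142fl and 185, 245 and 156 in Xu142. The next step of the cycle, reduction by a very-long-chain 3-oxoacyl-CoA reductase, was represented by 2 neighbouring genes. Gh_A03G153700 had 28.1, 13.9 and 24.5 in Xu142fl and 148, 242 and 83.5 in Xu142, and Gh_A03G153800 had 66.2, 66.6 and 35.2 in Xu142fl and 362, 400.2 and 168 in Xu142. Across these elongation genes the nearest libraries of the groups were at least 2.52-fold apart. ECERIFERUM 26-like, related to Arabidopsis proteins that let elongation reach the longest chains, had 333, 315 and 184 normalised reads in the Xu142fl libraries, against 1752, 1991 and 1037 in the Xu142 libraries for Gh_A08G189600, a log2 ratio of -2.52 ± 0.36. Its D partner Gh_D08G186400 had a log2 ratio of -1.55 ± 0.35, which became 0.050 under DESeq2 factors.

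Alkane synthesis, the branch of wax formation run in Arabidopsis by ECERIFERUM 1 and 3, moved in both directions among its named copies. ECERIFERUM 1 was lower at Gh_A05G335100, with 247, 241 and 167 in Xu142fl and 1161, 1258 and 863 in Xu142, and at Gh_D04G082000, with 21.3, 41.6 and 12.7 in Xu142fl and 351, 313 and 222 in Xu142. Another copy, Gh_A06G185800, was the 1 higher member of the whole wax group, with 308, 369 and 288 normalised reads in the Xu142fl libraries, against 80.1, 61.7 and 51.5 in the Xu142 libraries. The lowest Xu142fl library of that copy lay 3.59-fold above the highest Xu142 library, and the log2 ratio was 2.32 ± 0.22. ECERIFERUM 3 was lower in all 4 listed copies, among them Gh_A13G234700 with 40.4, 49.97 and 28.4 in Xu142fl and 294, 393 and 182 in Xu142. Long chain acyl-CoA synthetase 1 (Gh_A07G138800), which activates fatty acids for these steps, had 1615, 1475 and 1287 in Xu142fl and 3742, 3834 and 2922 in Xu142 and a log2 ratio of -1.26 ± 0.15 that turned to 0.30 under DESeq2 factors.

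Cuticle and GDSL lipase genes were lower in 11 of 12 cases, with a median log2 ratio of -2.57 and 0 of the 11 turned under DESeq2 factors. GDSL EXL3 (Gh_A06G002100) had 19.1, 13.0 and 6.85 in Xu142fl and 291, 302 and 172 in Xu142, and the APG-type lipase Gh_D05G132100 had 187, 179.5 and 176 in Xu142fl and 1106, 1226 and 728 in Xu142. The Xu142fl libraries were nearly alike in the second case, and the log2 ratio was -2.49 ± 0.21. GDSL lipases of the At5g33370 type, whose Arabidopsis relatives assemble cutin, included a lower pair, Gh_D13G119800 at 34.8, 21.3 and 6.85 in Xu142fl and 262, 332 and 157 in Xu142 and Gh_A13G118000 at 13.5, 10.2 and 3.92 in Xu142fl and 125, 152 and 61.8 in Xu142. Another gene of that name, Gh_A11G274400, was the higher member, at 29.2, 18.5 and 22.5 in Xu142fl and 5.07, 7.26 and 5.15 in Xu142, and the edgeR refit did not call it (edgeR's quasi-likelihood test with Benjamini-Hochberg adjustment, adjusted p = 0.0507). HOTHEAD (Gh_A05G122700), an Arabidopsis cutin enzyme whose loss fuses floral organs, stood at 214, 234 and 197 in Xu142fl and 790.02, 943 and 540.1 in Xu142, a log2 ratio of -1.82 ± 0.23.

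All 7 listed lipid-transfer proteins, a family of lipid carriers, were lower, with a median log2 ratio of -1.63, and 2 of the 7 turned under DESeq2 factors. They include genes named lipid transfer protein GPI-anchored 1, with log2 ratios of -1.29 (A01), -1.63 (D01), -1.52 (A04) and -2.28 (D04). Of the members described here, 3 lay in 2 matching stretches of the A10 and D10 chromosomes that also hold expansins. Gh_D10G123300 had 234, 398 and 351 normalised reads in the Xu142fl libraries, against 5125, 5874 and 1582 in the Xu142 libraries. The third Xu142 library was far below the other Xu142 libraries, and it still lay 3.98-fold above the highest Xu142fl library. The A-side gene Gh_A10G150000 had 122, 279 and 368 in Xu142fl and 3514, 3724 and 728 in Xu142, a log2 ratio of -3.37 ± 0.66, and Gh_A10G149700 had 737, 571 and 416 in Xu142fl and 1958, 2377 and 926 in Xu142, a log2 ratio of -1.61 ± 0.42. The last of these was not called by the refit (edgeR's quasi-likelihood test with Benjamini-Hochberg adjustment, adjusted p = 0.0577).

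**Figure D2:**
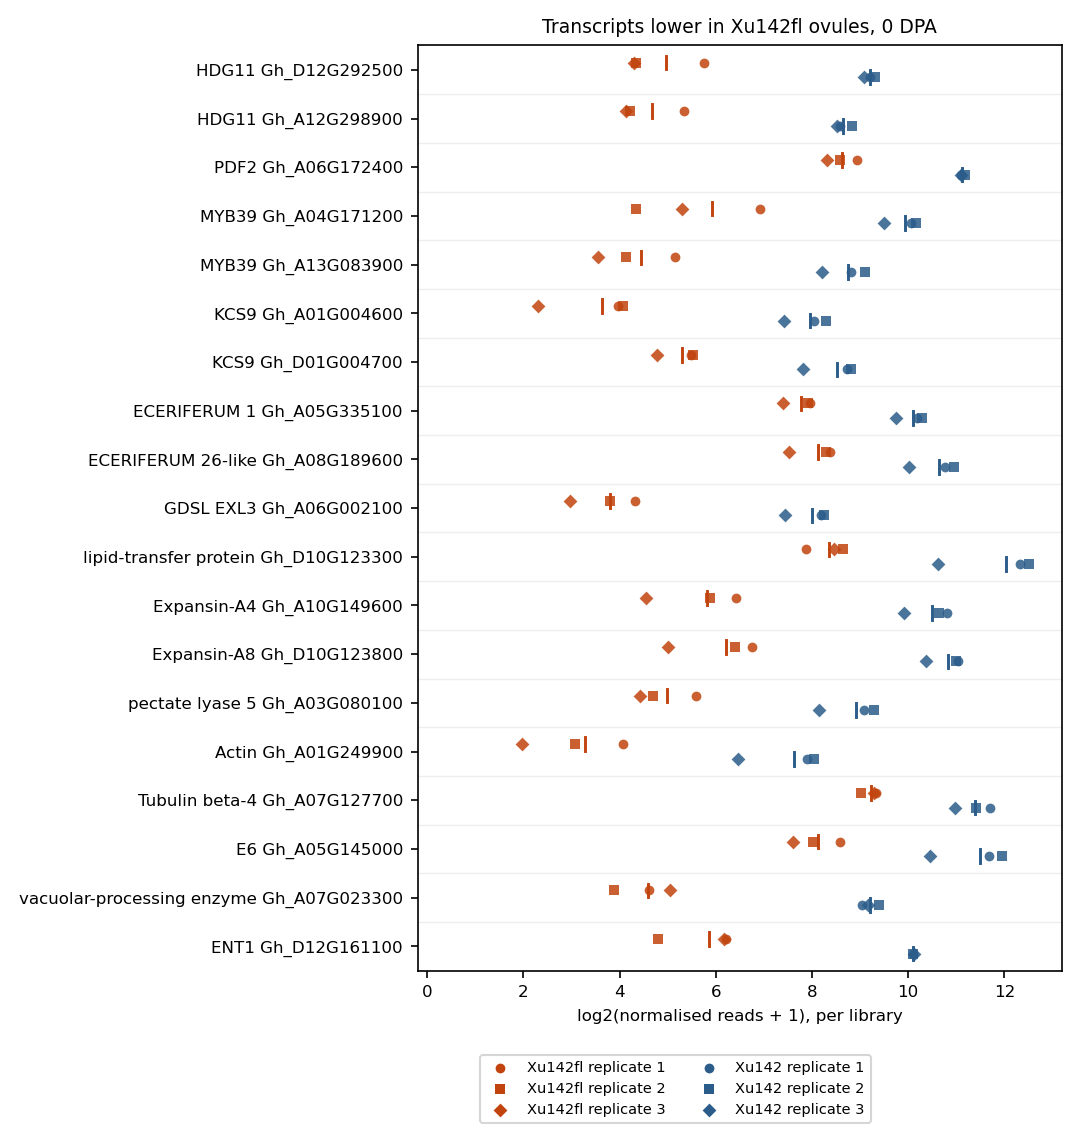
Log2(normalised reads + 1) of each library (x axis) for 19 transcripts lower in Xu142fl (rows), with Xu142fl in orange above Xu142 in blue, a marker shape per replicate and a bar at the group mean. No Xu142fl library reaches a Xu142 library in any row, and the third Xu142 library (diamond) is often the lowest of its group.

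All 6 listed expansins and xyloglucan endotransglucosylases, which loosen and rejoin the wall as a cell expands, were lower with a median log2 ratio of -4.66, and 0 of the 6 turned under DESeq2 or TMM factors. Expansin-A4 (Gh_A10G149600, chromosome A10, 83948169 to 83949465) had 85.3, 58.3 and 22.5 normalised reads in the Xu142fl libraries, against 1783, 1597 and 965 in the Xu142 libraries. Expansin-A8 (Gh_D10G123800, chromosome D10, 19208807 to 19210097) had 107, 83.3 and 31.3 in Xu142fl and 2093, 2031 and 1315 in Xu142. Log2 ratios were -4.71 ± 0.53 for Expansin-A4 and -4.62 ± 0.48 for Expansin-A8, and the third library was the lowest in both groups for both genes. Xyloglucan endotransglucosylase/hydrolase protein B (Gh_D11G064800) stood at 80.8, 43.5 and 53.8 in Xu142fl and 473, 554 and 296 in Xu142. Protein 6 of that family (Gh_D12G089300) had few or no reads in Xu142fl, with 2.25, 6.48 and 0 in Xu142fl and 107, 123 and 55.7 in Xu142, so that its log2 ratio of -5.03 ± 0.99 moved to -6.41 without Xu142fl replicate 2.

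Among pectin enzymes, 3 of 10 listed genes were higher and 7 lower, near the split over all listed genes. Their median log2 ratio was -1.44, and 4 of the 7 turned under DESeq2 factors. The pectate lyase 5 pair, which cuts pectin, was the strongest part, with 47.2, 25.0 and 20.6 in Xu142fl and 537, 624 and 284 in Xu142 for Gh_A03G080100 and 14.6, 19.4 and 5.87 in Xu142fl and 356, 326 and 112 in Xu142 for Gh_D03G117100. Another gene of that name, Gh_D12G204100, had 32.6, 20.4 and 27.4 in Xu142fl and 82.1, 87.1 and 55.7 in Xu142. Under DESeq2 factors its log2 ratio of -1.49 ± 0.27 became 0.086. Of the other wall enzymes 2 of 11 were higher and 9 lower, and 3 of the 9 turned under DESeq2 factors. They included 2 neighbouring genes for laccase-5, an oxidase that couples wall phenolics, at 3.37, 7.403 and 8.81 in Xu142fl and 31.4, 38.1 and 33.0 in Xu142 (Gh_D06G190600) and 10.1, 13.0 and 15.7 in Xu142fl and 48.7, 37.2 and 45.4 in Xu142 (Gh_D06G190700).

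The cytoskeleton was lower in 11 of 12 listed genes, with a median log2 ratio of -2.36, all 12 were called by the edgeR refit, and 1 of the 11 turned under DESeq2 factors. Actin was listed in 4 copies, all lower. Gh_A01G249900 had 15.7, 7.403 and 2.94 normalised reads in the Xu142fl libraries, against 236, 262 and 87.6 in the Xu142 libraries. Its groups were 5.57-fold apart at the nearest libraries, and its log2 ratio of -4.49 ± 0.74 was -5.24 without Xu142fl replicate 1. Gh_D01G244100 stood at 98.8, 60.1 and 55.8 in Xu142fl and 413, 466 and 270.1 in Xu142. For Gh_D10G254000 the Xu142fl libraries were nearly alike, with 67.4, 64.8 and 67.5 in Xu142fl and 391, 377 and 303 in Xu142. Formin-like protein 4, of a family that nucleates actin filaments, was lower in both listed copies, Gh_Contig00133G000400 at 6.74, 5.55 and 3.92 in Xu142fl and 91.3, 113 and 63.9 in Xu142 and Gh_Contig01120G000500 at 7.86, 6.48 and 3.92 in Xu142fl and 85.2, 122 and 69.1 in Xu142. Formin-like protein 6 (Gh_D05G062200) was the 1 higher member, with 418, 514 and 512 in Xu142fl and 147, 119.8 and 244 in Xu142 and a log2 ratio of 1.498 ± 0.33. The third Xu142 library was the lowest of its group in all of these actin and formin-like 4 genes. Myosin-17 (Gh_D07G015100), a motor that moves organelles along actin in Arabidopsis, had 23.6, 27.8 and 33.3 in Xu142fl and 115, 109.8 and 192 in Xu142. Tubulin beta-4 (Gh_A07G127700), a subunit of microtubules, had 642, 522 and 622 in Xu142fl and 3330.4, 2717 and 2006 in Xu142.

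ABIL3, which in Arabidopsis is a subunit of the SCAR/WAVE complex that turns on actin branching, was outside the cytoskeleton list and was lower in all 4 listed copies. Gh_A02G113400 had 16.8, 10.2 and 6.85 normalised reads in the Xu142fl libraries, against 188, 192 and 124 in the Xu142 libraries, and Gh_D03G099500 had 25.8, 14.8 and 8.81 in Xu142fl and 205, 227 and 112 in Xu142. The other two copies had smaller gaps, with 42.7, 26.8 and 20.6 in Xu142fl and 137, 161 and 72.2 in Xu142 for Gh_A12G263000 and 43.8, 29.6 and 40.1 in Xu142fl and 134, 139.8 and 69.1 in Xu142 for Gh_D12G257300. In each of the 4 copies the third Xu142 library was the lowest of its group. Protein E6, an abundant protein of young cotton fibers, was lower in both listed copies. Gh_A05G145000 had 385, 259 and 194 normalised reads in the Xu142fl libraries, against 3272, 3976 and 1408 in the Xu142 libraries, and Gh_D05G160200 had 841, 790.2 and 522 in Xu142fl and 4754, 5554 and 2239 in Xu142. Log2 ratios were -3.37 ± 0.48 for the A copy and -2.54 ± 0.40 for the D copy.

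Protease genes went both ways, with 4 of 13 listed members higher and 9 lower, near the split over all listed genes, a median log2 ratio of -3.38, and 2 of the 9 turned under DESeq2 factors. Vacuolar-processing enzyme, which matures other vacuolar proteins, had 23.6, 13.9 and 32.3 normalised reads in the Xu142fl libraries, against 522, 669 and 572 in the Xu142 libraries for Gh_A07G023300. The nearest libraries of the groups were 16.2-fold apart, and the adjusted p was 4.30e-66 in the authors' deposited table. A second copy, Gh_D12G237600, stood at 5.61, 6.48 and 1.96 in Xu142fl and 57.8, 41.7 and 46.4 in Xu142. Lysosomal Pro-X carboxypeptidase (Gh_A05G040900) had 28.1, 9.25 and 4.89 in Xu142fl and 469, 521 and 397 in Xu142, a log2 ratio of -5.04 ± 0.74 that was -6.03 without Xu142fl replicate 1. The cysteine protease RD21B (Gh_A06G153500) had 405, 229 and 188 in Xu142fl and 4559.6, 4573 and 2676 in Xu142. An aspartic proteinase (Gh_D08G224600) was among the higher members, with 67.4, 53.7 and 48.9 in Xu142fl and 22.3, 5.45 and 16.5 in Xu142, and the refit did not call it (edgeR's quasi-likelihood test with Benjamini-Hochberg adjustment, adjusted p = 0.0643).

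Transporter genes went both ways, with 6 of 20 higher outside the sugar, water and ion transporters, near the split over all listed genes. Equilibrative nucleotide transporter 1 (ENT1), which carries nucleosides across membranes, was lower in 3 copies. Gh_D12G161100 had 73.0, 26.8 and 71.5 normalised reads in the Xu142fl libraries, against 1094, 1092 and 1113 in the Xu142 libraries. The Xu142 libraries were nearly alike there and the second Xu142fl library was the lowest, with groups 14.96-fold apart at the nearest libraries, and the log2 ratio was -4.27 ± 0.38. The copies Gh_D13G013000 and Gh_A11G191800 were low in both groups, with 3.37, 0 and 2.94 in Xu142fl and 38.5, 33.6 and 41.2 in Xu142 for the first and 7.86, 2.78 and 0.979 in Xu142fl and 32.5, 37.2 and 46.4 in Xu142 for the second. Their log2 ratios of -4.17 ± 0.73 and -3.32 ± 0.78 were -3.58 without Xu142fl replicate 2 for the first and -4.37 without Xu142fl replicate 1 for the second. Among aquaporins, channels for water, all 4 listed genes were lower. PIP-type 7a (Gh_D06G194600) stood at 103, 83.3 and 121 in Xu142fl and 694, 696 and 589.6 in Xu142, a log2 ratio of -2.68 ± 0.17. TIP1-1 of the vacuole membrane (Gh_A11G371700) stood at 6.74, 3.70 and 0.979 in Xu142fl and 34.5, 54.5 and 83.5 in Xu142, a log2 ratio of -3.92 ± 0.72 that was -4.62 without Xu142fl replicate 1. The boron transporter 1 gene Gh_D08G139800 was higher, with 92.1, 173 and 289.7 in Xu142fl and 39.6, 41.7 and 63.9 in Xu142.

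Sugar metabolism and transport had 2 of 11 listed genes higher and 9 lower, with a median log2 ratio of -2.61, and 2 of the 9 turned under DESeq2 factors. Phosphoenolpyruvate carboxylase (Gh_D08G260100), which fixes carbon into malate, had 149, 73.1 and 120.4 normalised reads in the Xu142fl libraries, against 1571, 1605 and 2172 in the Xu142 libraries. The groups were 10.5-fold apart at the nearest libraries, and the third Xu142 library was the highest. Soluble beta-fructofuranosidase, an invertase that splits sucrose (Gh_A03G074400), had 15.7, 3.70 and 4.89 in Xu142fl and 112, 98.0 and 90.7 in Xu142, a log2 ratio of -3.63 ± 0.69 that was -4.54 without Xu142fl replicate 1. The higher members were sugar transport protein 5 (Gh_D05G227800), with 374, 383 and 287 in Xu142fl and 122, 103 and 122 in Xu142, and a subunit of the pyrophosphate-dependent phosphofructokinase (Gh_A10G001300), with 274, 270.2 and 220.2 in Xu142fl and 44.6, 31.8 and 22.7 in Xu142 and a log2 ratio of 2.95 ± 0.29.

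Phenylpropanoid and flavonoid genes were lower in 10 of 12 cases, with a median log2 ratio of -1.82, and 3 of the 10 turned under DESeq2 factors. Shikimate O-hydroxycinnamoyltransferase, an entry enzyme to lignin precursors, was listed in 3 genes that differed in direction. Gh_A10G147200 had 32.6, 56.4 and 8.81 in Xu142fl and 537, 599 and 319.5 in Xu142, a log2 ratio of -3.90 ± 0.66 that was -4.55 without Xu142fl replicate 2, and Gh_D10G125900 had 138, 160.1 and 185 in Xu142fl and 817, 978 and 644 in Xu142. The remaining gene, Gh_D06G231100, was higher with 42.7, 76.8 and 47.96 in Xu142fl and 13.18, 6.35 and 17.5 in Xu142. Cytochrome P450 genes were lower in 9 of 10 cases, and the edgeR refit called 5 of the 10. The third Xu142 library stood above the other Xu142 libraries there, with a median of 170% of the group mean over the 9 lower genes. In Gh_A13G153200, cytochrome P450 71D10, the values were 14.6, 15.7 and 10.8 in Xu142fl and 28.4, 43.6 and 136 in Xu142, and the log2 ratio of -2.34 ± 0.72 was -1.39 without Xu142 replicate 3. In Gh_D05G199000, cytochrome P450 82A3, they were 28.1, 16.7 and 14.7 in Xu142fl and 46.7, 34.5 and 150.5 in Xu142, and -1.96 ± 0.75 was -1.03 without Xu142 replicate 3.

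Photosynthesis genes, which also mark green tissue, were lower in all 9 listed cases with a median log2 ratio of -1.95, 4 of the 9 were called by the edgeR refit, and 1 of the 9 turned under DESeq2 factors. Their summed reads were 162.8, 149 and 141.9 in the Xu142fl libraries and 491, 485 and 591 in the Xu142 libraries. Of genes with pollen, anther or tapetum in the protein name 5 were listed (4 Bet v 1 allergen names and 1 pollen-specific extensin-like name), 0 higher and 5 lower. Their sums were 327, 252 and 172 in Xu142fl and 602, 612 and 1041 in Xu142. Of genes searched for by seed protein names 2 were listed, both named late embryogenesis abundant and both lower. Their sums were 42.7, 62.9 and 47.0 in Xu142fl and 160.2, 157 and 121 in Xu142. These names alone do not show pollen, anther, embryo or endosperm tissue, and the part of these genes in the other results was not tested. Of ovule markers 0 were among the called genes, which says nothing about their level. Ribosome and translation genes were lower in 13 of 14 cases with a median log2 ratio of -2.07, and 4 of the 13 turned under DESeq2 factors. The ribosomal protein L24-1 gene Gh_A09G197400 had 85.3, 38.9 and 90.0 in Xu142fl and 1107, 1173 and 891 in Xu142, a log2 ratio of -3.89 ± 0.35. The L11-2 gene Gh_D10G037000 had 117, 67.5 and 83.2 in Xu142fl and 859, 934 and 558 in Xu142.

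Ethylene genes went both ways, with 7 of 11 listed genes higher and 4 lower. The median log2 ratio was 1.45, and the edgeR refit called 7 of the 11. The synthase that makes the ethylene precursor, 1-aminocyclopropane-1-carboxylate synthase (Gh_A12G256700, chromosome A12, 101559036 to 101561555), had 445, 948 and 1139 normalised reads in the Xu142fl libraries, against 94.3, 106 and 137 in the Xu142 libraries. The lowest Xu142fl library lay 3.24-fold above the highest Xu142 library, and the log2 ratio was 2.91 ± 0.39. CTR1, the kinase that holds ethylene responses off while no ethylene is bound, was higher in all 4 listed copies. Gh_D05G290300 had 404, 587 and 611 in Xu142fl and 119, 118 and 174 in Xu142, Gh_A05G277000 had 177, 302 and 312 in Xu142fl and 90.3, 59.9 and 91.7 in Xu142 and Gh_D06G032600 had 173, 155 and 199 in Xu142fl and 40.6, 40.8 and 59.8 in Xu142. In Gh_A06G033000 the groups came close, with 359, 492 and 671 in Xu142fl and 131, 105 and 305 in Xu142, and the log2 ratio of 1.49 ± 0.56 was 2.10 without Xu142 replicate 3. Ethylene receptor 2, which also represses the pathway without ethylene, was higher in both copies, Gh_A02G043700 at 900.4, 1391 and 1799 in Xu142fl and 476, 459 and 807 in Xu142 and Gh_D02G049000 at 1032, 1481 and 1724 in Xu142fl and 415, 383 and 748 in Xu142. Neither copy was called by the refit, with an adjusted p of 0.155 for the A copy and 0.053 for the D copy (edgeR's quasi-likelihood test with Benjamini-Hochberg adjustment). EIN3-binding F-box protein 2 (Gh_A05G011900), which marks the pathway's transcription factor for breakdown, had 236, 248 and 278 in Xu142fl and 63.9, 56.3 and 140.2 in Xu142. Genes named for 1-aminocyclopropane-1-carboxylate oxidase, the enzyme of the last step of synthesis, or for its homologs made up the 4 lower genes. Whether the homologs act in that step was not tested. The homolog Gh_A09G250900 had 98.8, 31.5 and 58.7 in Xu142fl and 1101, 1182 and 803 in Xu142, a log2 ratio of -4.03 ± 0.48. Oxidase 3 (Gh_A08G059100) had 602, 277 and 313 in Xu142fl and 1054, 1490.1 and 771 in Xu142, and under DESeq2 factors its log2 ratio of -1.48 ± 0.46 became 0.087, with no call by the refit (edgeR's quasi-likelihood test with Benjamini-Hochberg adjustment, adjusted p = 0.0813).

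AP2/ERF factors, which answer ethylene, cold and wounding, were higher in 12 of 13 listed cases with a median log2 ratio of 2.43. The edgeR refit called 5 of the 13, 4 higher and 1 lower. DREB1D (Gh_A11G007900), a factor of cold and drought responses, had 61.8, 220.2 and 217 normalised reads in the Xu142fl libraries, against 9.13, 18.2 and 8.25 in the Xu142 libraries. The first Xu142fl library was far below the other two and still 3.40-fold above the highest Xu142 library, and the log2 ratio was 3.81 ± 0.60. ERF012 was higher in both copies, Gh_A05G217900 at 30.3, 87.9 and 78.3 in Xu142fl and 7.10, 18.2 and 18.6 in Xu142 and Gh_D05G234800 at 23.6, 41.6 and 31.3 in Xu142fl and 3.04, 11.8 and 3.09 in Xu142. The log2 ratio of the D copy, 2.43 ± 0.74, was 3.39 without Xu142 replicate 2. Ethylene-responsive transcription factor 3 (Gh_D05G387300), a repressor in tobacco, was the 1 lower member, with 1.12, 2.78 and 2.94 in Xu142fl and 54.8, 65.3 and 73.2 in Xu142.

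WRKY factors, known from defense and stress, were higher in all 8 listed cases, with a median log2 ratio of 2.11, and the edgeR refit called 6 of the 8. WRKY46 had 78.6, 86.1 and 62.6 normalised reads in the Xu142fl libraries, against 8.11, 19.1 and 17.5 in the Xu142 libraries for its D copy (Gh_D07G149000), and 179, 202 and 265 in Xu142fl and 25.4, 69.9 and 81.4 in Xu142 for its A copy (Gh_A07G149100). WRKY40 (Gh_A06G212900) stood at 157, 145 and 209 in Xu142fl and 46.7, 69.0 and 57.7 in Xu142, and WRKY41 (Gh_A08G113300) at 24.7, 50.9 and 89.1 in Xu142fl and 3.04, 10.9 and 10.3 in Xu142. In Gh_D07G149000, Gh_A07G149100 and Gh_A08G113300 the first Xu142 library was the lowest. NAC90 was higher in both copies, with 14.6, 72.2 and 124 in Xu142fl and 10.1, 9.98 and 4.12 in Xu142 for Gh_A09G115100 and 17.96, 60.1 and 68.5 in Xu142fl and 5.07, 14.5 and 4.12 in Xu142 for Gh_D09G108800. The first Xu142fl library came close to Xu142 in both. The log2 ratio of Gh_A09G115100, 3.12 ± 0.74, was 2.42 without Xu142fl replicate 3, and that of Gh_D09G108800, 2.63 ± 0.76, was 3.41 without Xu142 replicate 2. MYB44 (Gh_D06G015200), a regulator of stress responses in Arabidopsis, had 88.7, 112 and 187 in Xu142fl and 19.3, 11.8 and 20.6 in Xu142, and bHLH35 (Gh_A13G235300) had 223, 184 and 141.9 in Xu142fl and 37.5, 32.7 and 33.0 in Xu142.

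**Figure D3:**
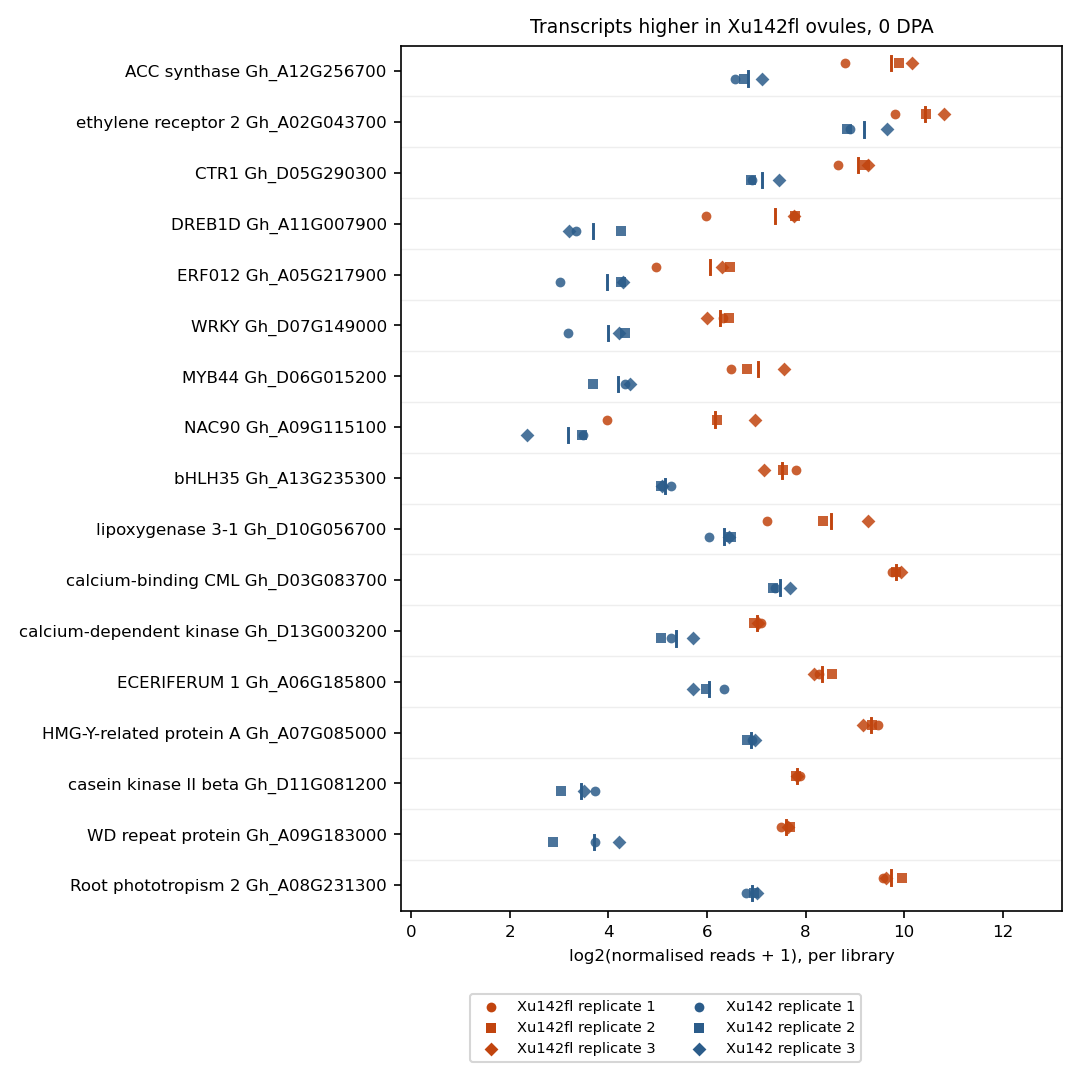
Log2(normalised reads + 1) of each library (x axis) for 17 transcripts higher in Xu142fl (rows), with Xu142fl in orange above Xu142 in blue, a marker shape per replicate and a bar at the group mean. The first Xu142fl library (circle) is the lowest of its group for DREB1D, ERF012, NAC90 and lipoxygenase 3-1, while the last 7 rows, from the calcium-binding protein down to Root phototropism 2, have Xu142fl libraries close to each other.

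Calcium signalling genes were also higher, while jasmonate genes went both ways. Lipoxygenase 3-1, which starts jasmonate synthesis, was higher in both copies, with 147, 325 and 615 in Xu142fl and 64.9, 88.0 and 86.6 in Xu142 for Gh_D10G056700 and 169.5, 374 and 299 in Xu142fl and 46.7, 86.2 and 111 in Xu142 for Gh_A10G043900. The log2 ratio of Gh_D10G056700, 2.18 ± 0.56, was 1.56 without Xu142fl replicate 3. Jasmonic acid-amido synthetase JAR1 (Gh_D01G016000), which makes the active form of the hormone in Arabidopsis, was lower, with 15.7, 2.78 and 5.87 in Xu142fl and 92.3, 123 and 103 in Xu142, a log2 ratio of -3.71 ± 0.70 that was -4.62 without Xu142fl replicate 1. All 7 listed calcium signalling genes were higher, with a median log2 ratio of 1.85, and the edgeR refit called 6 of the 7. The calcium-binding protein CML50 (Gh_D03G083700) had 867, 909 and 974 normalised reads in the Xu142fl libraries, against 165, 161 and 205 in the Xu142 libraries. The groups were 4.23-fold apart at the nearest libraries, with a log2 ratio of 2.37 ± 0.13. Calcium-dependent protein kinase 1 (Gh_D13G003200) had 136, 122 and 129 in Xu142fl and 37.5, 32.7 and 51.5 in Xu142, and CBL-interacting kinase 6 (Gh_A06G108700), which is driven by calcium sensors, had 2453, 2285 and 2421 in Xu142fl and 915, 915 and 1156 in Xu142.

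Receptor-like kinases were higher in 10 of 16 listed cases, and the 6 lower ones had the larger changes, with a median log2 ratio of -4.44 against 2.19 for the 10 higher ones. The edgeR refit called 6 of the 10 higher ones and all 6 lower ones, and the groups overlapped in 1 of the higher ones. The lectin receptor kinase Gh_D02G205400 had 214, 247 and 239 in Xu142fl and 45.6, 55.4 and 39.2 in Xu142. A gene named for FERONIA, a receptor that in Arabidopsis steers cell growth (Gh_D12G052300), had 7.86, 44.4 and 43.1 in Xu142fl and 1.01, 3.63 and 4.12 in Xu142. Among the lower ones, the inactive receptor kinase Gh_A13G223700 had 6.74, 7.403 and 0 in Xu142fl and 98.4, 113 and 78.3 in Xu142, and the leucine-rich repeat kinase Gh_D11G273000 had 10.1, 2.78 and 17.6 in Xu142fl and 106, 119.8 and 219 in Xu142. The first Xu142fl library was far below the others in FERONIA. The log2 ratio of Gh_D11G273000, -3.87 ± 0.70, was -4.53 without Xu142fl replicate 3. Disease resistance proteins, intracellular immune receptors, were higher in 7 of 21 cases and lower in 14, near the split over all listed genes. Their median log2 ratio was -3.36, and 0 of the 14 turned under DESeq2 factors. Gh_A11G360000 had 16.8, 3.70 and 17.6 in Xu142fl and 192, 189 and 364 in Xu142, and Gh_Contig00062G001200 had 16.8, 20.4 and 34.3 in Xu142fl and 276, 217 and 795 in Xu142. The log2 ratio of Gh_Contig00062G001200, -4.17 ± 0.70, was -3.37 without Xu142 replicate 3. Among the higher ones, Gh_D11G321500 had 969, 1082 and 1302 in Xu142fl and 256, 307 and 480.3 in Xu142.

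Chromatin proteins were higher in 5 of 6 listed cases, and none of the 6 is named for a methylase or demethylase of histone H3 lysine 27. HMG-Y-related protein A (Gh_A07G085000), which binds AT-rich DNA, had 703, 654 and 575 normalised reads in the Xu142fl libraries, against 119, 111 and 125 in the Xu142 libraries. The groups were 4.61-fold apart at the nearest libraries and each group was tight, with a log2 ratio of 2.45 ± 0.10. Histone H2B.3 (Gh_A13G255900) had 3093, 2908 and 2222 in Xu142fl and 1088, 1172 and 951 in Xu142. In the cell cycle and DNA replication group, 3 of 10 were higher and 7 lower, near the split over all listed genes, and 1 of the 7 turned under DESeq2 factors. Cell division control protein 45 (Gh_A11G148200), part of the replicative helicase, had 139, 146 and 115 in Xu142fl and 8.11, 0 and 8.25 in Xu142, a log2 ratio of 4.62 ± 0.73 that was 4.03 without Xu142 replicate 2. A cyclin-dependent kinase inhibitor, number 7 (Gh_D13G040600), stood at 33.7, 29.6 and 15.7 in Xu142fl and 201, 217 and 102 in Xu142.

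Several further higher genes fell outside the groups above. The putative casein kinase II subunit beta-4 (Gh_D11G081200, chromosome D11, 6643859 to 6650458) had 236, 221 and 224 normalised reads in the Xu142fl libraries, against 12.2, 7.26 and 10.3 in the Xu142 libraries. WD repeat-containing protein 62 (Gh_A09G183000) had 181, 204 and 198 in Xu142fl and 12.2, 6.35 and 17.5 in Xu142, and Root phototropism protein 2 (Gh_A08G231300) had 761, 988 and 794 in Xu142fl and 109.5, 123 and 128 in Xu142. The aldehyde dehydrogenase 7B4 gene Gh_A06G169400, of a family that clears reactive aldehydes under stress, had 2405, 2453 and 1949.8 in Xu142fl and 450.3, 468 and 374 in Xu142. In all 4 genes the Xu142fl libraries were close to each other, and the nearest libraries of the groups were at least 4.16-fold apart.

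The remaining groups held smaller or mixed changes. Over all listed genes 36.7% were higher, and a group near that share says little about the group itself. Genes for hormones other than ethylene and for protein turnover went both ways, with 1 higher and 4 lower among 5 auxin genes (2 of the 4 turned under DESeq2 factors, and the edgeR refit called 1 of the 5), 2 higher and 3 lower among 5 gibberellin genes (1 of the 3 turned), 2 higher and 2 lower among 4 genes of cytokinin, jasmonate, abscisic acid and brassinosteroid (0 turned), and 7 higher and 11 lower among 18 ubiquitin and proteasome genes (4 turned). Heat-shock proteins and chaperones were lower in 5 of 6 cases (1 turned), peroxidase and redox genes in 10 of 14 (2 turned, and the edgeR refit called 7 of the 14), other transporters in 14 of 20 (2 turned) and aquaporins, pumps and ion transporters together in 7 of 11 (0 turned). Vesicle traffic genes were lower in 4 of 6 cases (2 turned), other lipid enzymes in 8 of 14 (1 turned), other kinases and phosphatases in 18 of 30 (3 turned) and pentatricopeptide repeat proteins in 6 of 11 (2 turned). Among further regulators, bHLH factors were higher in 3 of 4 cases (0 turned), NAC factors in 4 of 6 (0 turned) and other transcription factors in 5 of 12 (3 of the 7 lower ones turned, and the edgeR refit called 5 of the 12). Glycosyltransferases were split, with 2 higher and 2 lower (1 turned), 1 arabinogalactan protein was lower and 1 transposon-related gene was higher. Named genes in no list were higher in 110 cases and lower in 202.

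Stomatal genes were also among the listed ones. FAMA, the factor of guard cell fate in Arabidopsis, was higher in both copies, Gh_D10G154900 at 40.4, 31.5 and 26.4 in Xu142fl and 8.11, 13.6 and 6.18 in Xu142 and Gh_A10G118200 at 23.6, 31.5 and 32.3 in Xu142fl and 10.1, 9.08 and 5.15 in Xu142. EPIDERMAL PATTERNING FACTOR 1 (Gh_D01G016400), a secreted peptide that in Arabidopsis spaces stomata, had 21.3, 16.7 and 12.7 in Xu142fl and 1.01, 2.72 and 2.06 in Xu142. Its receptor partner TOO MANY MOUTHS (Gh_D05G121300) was lower, with 51.6, 65.7 and 25.4 in Xu142fl and 123, 145 and 104 in Xu142, and under DESeq2 factors its log2 ratio of -1.38 ± 0.38 became 0.19. The edgeR refit called EPIDERMAL PATTERNING FACTOR 1 (adjusted p = 0.013) and neither FAMA copy (0.0813 and 0.0631) nor TOO MANY MOUTHS (0.111, edgeR's quasi-likelihood test with Benjamini-Hochberg adjustment). These genes were chosen after their values were seen.

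At 0 reads in all 3 libraries of a group stood 47 transcripts, 32 in Xu142fl and 15 in Xu142, of which 10 carry a protein name. Methylesterase 10 (Gh_A11G200500), of a family that cleaves methyl esters of hormones in Arabidopsis, had 97.7, 137 and 134 in Xu142fl and 0, 0 and 0 in Xu142. Taking 3 reads over the Xu142 group as the floor, it was at least 125-fold higher in Xu142fl. A gene named for SYD, an ATPase of a chromatin remodelling complex (Gh_D12G183500), had 28.1, 14.8 and 22.5 in Xu142fl and 0, 0 and 0 in Xu142. It was at least 22.1-fold higher. Its listed length was only 318 bases, and whether it encodes the whole protein was not tested. In the other direction, NAC domain-containing protein 91 (Gh_A08G142800) had 0, 0 and 0 in Xu142fl and 34.5, 63.5 and 60.8 in Xu142 and was at least 52.5-fold lower in Xu142fl. Cyclin-D1-1 (Gh_A02G181300), which drives entry into the cell cycle, had 0, 0 and 0 in Xu142fl and 19.3, 19.1 and 10.3 in Xu142 and was at least 16.1-fold lower.

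Replicates of a group resembled each other far more than they resembled the other genotype, in genes listed because the genotypes differ. Correlations of log2(value + 1) over the 1366 listed genes ran from 0.935 to 0.966 within groups and from 0.203 to 0.374 between groups. The 3 Xu142fl values lay on 1 side of the 3 Xu142 values in 1358 genes. The nearest values of the groups were at least 2-fold apart in 1050 genes (76.9%), with a median gap of 3.30-fold. In the 8 genes with overlap, all higher in Xu142fl on average, the first Xu142fl library was the lowest of its group. They include the brassinosteroid-responsive factor BEE 3 (Gh_D09G188100), at 17.96, 115 and 137 in Xu142fl and 14.2, 13.6 and 21.6 in Xu142, and chitin-inducible gibberellin-responsive protein 1 (Gh_A04G025800), at 101, 296 and 358 in Xu142fl and 65.9, 105 and 85.6 in Xu142. Without the first Xu142fl library all 1366 genes were free of overlap. The coefficient of variation was larger in the group with fewer reads, with medians of 18.2% in Xu142fl and 34.3% in Xu142 over the higher genes, and of 38.3% in Xu142fl and 23.5% in Xu142 over the lower genes.

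The libraries of a group differed in step across whole gene groups. Over the AP2/ERF genes higher in Xu142fl, the libraries held a median of 58.6%, 131% and 107% of the group mean in Xu142fl and of 72.3%, 112% and 123% in Xu142. Over the lower wax genes they held 112%, 110.2% and 73.9% in Xu142fl and 107%, 125% and 68.9% in Xu142. The third library was thus low for wax genes in both groups, as it was for cuticle genes, for expansins and for MYB factors. Photosynthesis genes ran the other way in Xu142, where the third library held 126%.

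**Figure D4:**
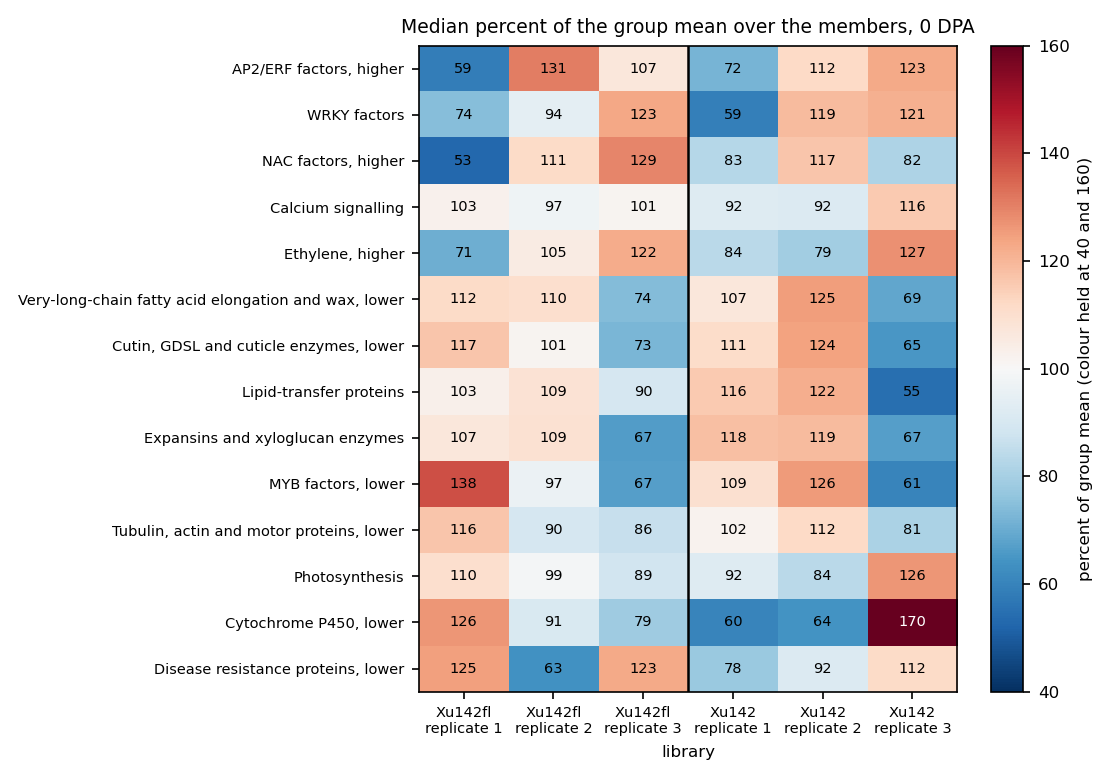
Median percent of the group mean that each library holds (columns, Xu142fl left of the line and Xu142 right of it) over the members of each gene group in the named direction (rows), with the value printed in each cell. The third library is low in both genotypes for the wax, cuticle, expansin and MYB rows, and the first library is low for the AP2/ERF row.

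Genes of the same protein name on partner chromosomes of A and D mostly moved together. Genes called copies here and above share a protein name, and whether they are copies of the same gene was not tested. Among listed genes, 71 pairs carried the same protein name on partner chromosomes of the A and D subgenomes, and in 68 of them both copies had the same direction, lower in 49 and higher in 19. Their log2 ratios differed by a median of 0.41, and by at most 1 in 52 pairs. Since both copies had to be listed to form a pair, and since reads of near-identical copies can be shared by the counting, these pairs are not independent measurements. In 3 pairs the copies went opposite ways. Polyphenol oxidase, a plastid enzyme that browns phenolics, had 126, 111 and 18.6 in Xu142fl and 966, 1084 and 582 in Xu142 for Gh_A06G204600 and 29.2, 19.4 and 11.7 in Xu142fl and 2.03, 1.82 and 2.06 in Xu142 for Gh_D06G209900. DETOXIFICATION 27, a membrane exporter, had 73.0, 62.9 and 51.9 in Xu142fl and 15.2, 27.2 and 16.5 in Xu142 for Gh_A06G036100 and 35.9, 34.2 and 24.5 in Xu142fl and 236, 259.5 and 169 in Xu142 for Gh_D06G035600. The last pair was named 7-deoxyloganetic acid glucosyltransferase, with 3.37, 0.925 and 3.92 in Xu142fl and 38.5, 21.8 and 34.0 in Xu142 for Gh_A10G235600 and 39.3, 39.8 and 35.2 in Xu142fl and 6.08, 2.72 and 7.22 in Xu142 for Gh_D10G268000.

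By subgenome, 636 listed genes lay on A chromosomes (240 higher and 396 lower), 703 on D chromosomes (250 higher and 453 lower) and 27 on contigs. Chromosome D04, picked after the values of all chromosomes were seen, had 3 higher and 32 lower genes. At the other end, A07 had 24 higher and 24 lower and D02 had 30 higher and 30 lower, and differences between chromosomes were not tested. Listed genes with less than 20000 bases between neighbours formed 93 runs of 199 genes, of which 40 were all lower, 28 all higher and 25 mixed. The longest runs held 4 genes. By annotation, 752 listed genes carried a protein name (259 higher and 493 lower), 255 were annotated with no name (90 higher and 165 lower) and 359 were unannotated transcripts (153 higher and 206 lower).

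Most genes listed at 0 DPA were also listed on the next day. At 1 DPA 1145 of the 1366 were listed (83.8%), which is 10.6% of the 10793 genes of that day, and at -1 DPA 559 were listed (40.9%), which is 64.1% of the 872 genes of that day. Of the genes shared with 1 DPA 1117 had the same direction and 28 the opposite one, and of those shared with -1 DPA 558 had the same direction and 1 the opposite one. Genes listed at 0 and 1 DPA but not at -1 DPA numbered 619, of which 489 were lower in Xu142fl. They take in HDG11, Expansin-A4, Expansin-A8 and the pectate lyase 5 pair. Genes listed on all 3 days numbered 526, of which 293 were higher throughout and 229 lower throughout. Those listed at 0 DPA alone numbered 188 (13.8%), 68 higher and 120 lower, and 43 of the 120 were unannotated transcripts. Each day was normalised on its own, so values of different days are given side by side with no test. The AP2/ERF group had 6 of 13 members listed at 0 DPA alone, while all 24 wax genes, all 21 MYB factors and all 12 cytoskeleton genes were also listed at 1 DPA in the same direction.

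Between the genotypes, some of the transcripts described above were further apart at 1 DPA than at 0 DPA and others were closer. Expansin-A4 averaged 1.05 in Xu142fl and 20376 in Xu142 at 1 DPA, E6 (Gh_A05G145000) averaged 157 in Xu142fl and 54587 in Xu142 and the lipid-transfer protein Gh_D10G123300 averaged 115 in Xu142fl and 49112 in Xu142. HDG11 (Gh_D12G292500) averaged 0 in Xu142fl and 707 in Xu142 there. Tubulin beta-4 (Gh_A07G127700) was closer at 1 DPA, with 784 in Xu142fl and 2229 in Xu142 and a log2 ratio of -1.51, beside -2.17 at 0 DPA. PDF2 (Gh_A06G172400) was lower on all 3 days, with 460.4 in Xu142fl and 2466 in Xu142 at -1 DPA and 339.6 in Xu142fl and 1407 in Xu142 at 1 DPA, where its log2 ratio was -2.05 beside -2.50 at 0 DPA, and the copy Gh_D10G015500 was not listed at 1 DPA. Among higher genes, CML50 averaged 893 in Xu142fl and 17.4 in Xu142 at -1 DPA and 828 in Xu142fl and 4.91 in Xu142 at 1 DPA, so that its Xu142 mean of 177 at 0 DPA stood above both other days, and it was among the 45 transcripts described above. HMG-Y-related protein A averaged 623 in Xu142fl and 151 in Xu142 at -1 DPA and 604 in Xu142fl and 68.3 in Xu142 at 1 DPA.

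The direction at 0 DPA was not kept at 1 DPA in 20 genes whose groups were apart on both days, 10 higher at 0 DPA and 10 lower at 0 DPA. RPM1-interacting protein 4, a plasma membrane protein of immunity, was listed in 4 copies, of which a pair was higher at 0 DPA and turned at 1 DPA. Gh_A03G153500 had 67.4, 117 and 222 in Xu142fl and 29.4, 24.5 and 54.6 in Xu142 at 0 DPA, and 21.1, 23.6 and 30.1 in Xu142fl and 48.6, 128 and 171 in Xu142 at 1 DPA. Gh_D02G172600 had 56.1, 131 and 161 in Xu142fl and 37.5, 30.9 and 49.5 in Xu142 at 0 DPA, and 26.1, 22.5 and 30.6 in Xu142fl and 44.5, 157 and 242 in Xu142 at 1 DPA. The groups were apart on both days for this pair, with the order turned round. The other two copies were lower at 0 DPA, Gh_A06G179800 with 5.61, 8.33 and 0.979 in Xu142fl and 149, 176 and 75.2 in Xu142 and Gh_D06G182000 with 7.86, 4.63 and 0 in Xu142fl and 105, 97.1 and 43.3 in Xu142, and they were lower at 1 DPA as well, with means of 1.19 in Xu142fl and 1628 in Xu142 for the A copy and 3.59 in Xu142fl and 1964 in Xu142 for the D copy. Their log2 ratios at 0 DPA, -4.75 ± 0.70 for the A copy and -4.30 ± 0.86 for the D copy, were -5.34 without Xu142fl replicate 2 for the first and -5.15 without Xu142fl replicate 1 for the second. Lipoxygenase 3-1 (Gh_A10G043900) and auxin-induced protein 22D (Gh_D08G065200) behaved likewise. The first had 30.1, 25.6 and 19.3 in Xu142fl and 34.1, 95.5 and 98.3 in Xu142 at 1 DPA, and the second had 169.5, 390.5 and 567 in Xu142fl and 56.8, 122 and 115 in Xu142 at 0 DPA and 80.3, 37.9 and 63.5 in Xu142fl and 132, 180.1 and 309.99 in Xu142 at 1 DPA. The chloroplast chaperone dnaJ 11 was lower at 0 DPA in both copies, of which Gh_D02G249500 turned to 0.024 under DESeq2 factors. Gh_D02G249500 had 235, 122 and 148 in Xu142fl and 557, 539.97 and 365 in Xu142 at 0 DPA and 778, 638 and 652 in Xu142fl and 148, 184 and 244 in Xu142 at 1 DPA, and Gh_A03G233100 had 52.8, 37.9 and 39.2 in Xu142fl and 111, 195 and 109 in Xu142 at 0 DPA and 512, 482 and 469.7 in Xu142fl and 36.2, 55.9 and 171 in Xu142 at 1 DPA. The homeodomain factor ATHB-40 (Gh_D11G200000) had 216, 202 and 159.5 in Xu142fl and 461, 1025 and 299 in Xu142 at 0 DPA, a log2 ratio of -1.63 ± 0.55 that was -0.98 without Xu142 replicate 2, and 3530.4, 3244 and 2633 in Xu142fl and 361, 696 and 1717 in Xu142 at 1 DPA. WRKY46 and NAC90, both higher at 0 DPA, had lower means in Xu142fl at 1 DPA in both copies. WRKY46 averaged 53.2 in Xu142fl and 193 in Xu142 for Gh_A07G149100 and 29.7 in Xu142fl and 183 in Xu142 for Gh_D07G149000, and NAC90 averaged 12.4 in Xu142fl and 59.3 in Xu142 for Gh_A09G115100 and 11.6 in Xu142fl and 51.2 in Xu142 for Gh_D09G108800. These 4 genes are not among the 20, since their groups overlapped at 1 DPA.

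**Figure D5:**
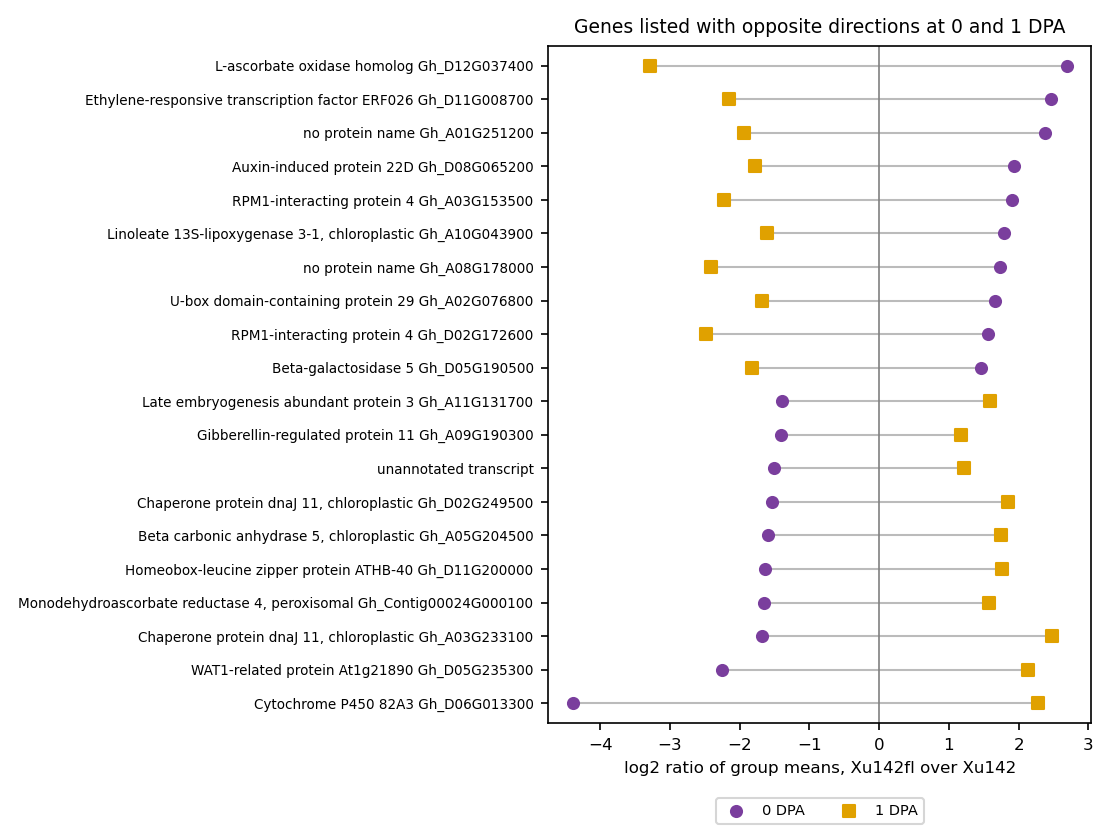
Log2 ratio of the Xu142fl mean over the Xu142 mean at 0 DPA (circles) and 1 DPA (squares) for the 20 genes (rows) whose groups were apart on both days with opposite directions. The upper 10 rows are higher in Xu142fl at 0 DPA and lower at 1 DPA, and the lower 10 rows the reverse.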

How the data were processed

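The comparison used the 6 ovule libraries of 0 DPA, 3 per genotype, grouped by sample title. The tables of -1 and 1 DPA were used for values side by side. In each table the authors deposited a signal per library, normalised reads per gene, with a deposited log2 fold change (Xu142 over Xu142fl) and a deposited p-value and adjusted p-value, per the file headers. The aligner, the counter, the use of strand, the genome build and the test were not given in the sources used here, so reads of a gene and of one overlapping it cannot be told apart. Coordinates are those of the file. Within a library 100% of values were whole multiples of 1 value within 0.001, so the deposited signal is a count divided by 1 factor, and whole counts were recovered. Library depth is unknown, since only called genes are listed, and the deposited fold changes were smaller than the plain ratios, with a median of 0.646 of them.

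The main result is the authors' deposited calls, with group means, SDs and log2 ratios of means (delta-method standard errors, n = 3 each) computed from the deposited signal. The number of genes tested follows from how the deposited adjusted p-values relate to the unadjusted ones. As alternatives, the whole counts of these genes were put through DESeq2 1.42.0 and the quasi-likelihood test of edgeR 4.0.16, and log2(value + 1) or log2(value + 0.1) through limma 3.58.1, all under R 4.3.3 and adjusted by Benjamini-Hochberg as for 57326 genes, and the steps were tested on simulated data. Other alternatives left out each library, added a replicate block, took other factors, or set an adjusted p under 0.01 or a mean of at least 10. The edgeR refit took in the 1366 listed genes only and called 1144 of them. That is 2.00% of the 57326 genes the authors tested, but the unlisted genes could not be called by it. Protein names are the Full= names in the gene descriptions, present for 55.1% of listed genes. They were sorted into 41 lists, of which 3 search patterns were corrected after the names they took were seen. The members and lists were chosen with earlier results of these data known. A naming rule was applied to genes with a protein name and groups that did not overlap. Per list, it took up to 4 higher and 4 lower genes with the largest ratios and at least 50 normalised reads in the higher group. It also took the 10 largest in each direction over all with at least 100, and listed genes of the same name on the partner chromosome. The rule took 228 genes, of which 96 are named here, so it did not alone settle which genes are named. Of the 150 genes named, 54 fell outside this rule and were chosen after their values were seen, mostly as further copies or steps of a described group.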

Additional observations from a re-analysis of the deposited data

Results flagged for a closer look

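In 20 genes the difference between Xu142fl and Xu142 at 0 DPA had the opposite direction at 1 DPA, with every library of one genotype above every library of the other on both days. They were picked out for this, the days were normalised separately, and the difference between days was not tested. Among them, the L-ascorbate oxidase homolog Gh_D12G037400 averaged 70.1 in Xu142fl and 10.9 in Xu142 at 0 DPA, and 19.1 in Xu142fl and 186 in Xu142 at 1 DPA. Gibberellin-regulated protein 11 (Gh_A09G190300) averaged 336 in Xu142fl and 887 in Xu142 at 0 DPA, and 1313 in Xu142fl and 585 in Xu142 at 1 DPA. Under DESeq2 size factors from the listed genes its log2 ratio at 0 DPA was 0.15 and that of dnaJ 11 Gh_D02G249500 was 0.024, so the reversal ended for both, and 4 of the 10 genes lower at 0 DPA turned there.

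At -1 DPA, 1 gene had the opposite direction to 0 DPA with groups apart on both days, which was also not tested. The G protein subunit beta-like gene Gh_A06G013400 had 159, 289 and 272 in Xu142fl and 56.8, 70.8 and 61.8 in Xu142 at 0 DPA, and 21.1, 16.3 and 25.6 in Xu142fl and 95.2, 122 and 69.2 in Xu142 at -1 DPA.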

How the results depend on the processing

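The 1366 calls became 671 with edgeR and DESeq2 size factors from the listed genes, 804 with edgeR and TMM factors, 882 with limma on log2(value + 1) and 286 with limma on log2(value + 0.1). Such factors place the middle of the list near 0 by construction, and the cause of the other differences was not tested. The median log2 ratio of -1.77 became -0.21 with DESeq2 size factors, -0.65 with TMM factors and -1.73 with a pseudocount of 1. Leaving out 1 library gave 688 to 1016 calls with edgeR, with 857 without Xu142 replicate 1, 688 without Xu142 replicate 2, 765 without Xu142fl replicate 2 and 798 without Xu142fl replicate 3, where fewer samples remain. The count stayed within 1.5 times with DESeq2 (1343), edgeR (1144), an adjusted p under 0.01 (1350) and a mean of at least 10 (1301). Every setting started from the 1366 called genes, so a count could fall but not rise, and a count near 1366 gives no separate support.

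With a replicate block edgeR called 983 genes against 1144 without it, and 26 of the named genes missed the threshold with it, among them Cyclin-D1-1 (Gh_A02G181300, edgeR adjusted p = 0.0614) and EPIDERMAL PATTERNING FACTOR 1 (Gh_D01G016400, edgeR adjusted p = 0.0985). Deviations of same-numbered libraries correlated at 0.0968 to 0.189 and of other pairs at -0.144 to 0.0172, and all 6 libraries correlated best with their own number, a hint from the data only, so the numbers were not taken to pair the samples.

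Of the named genes, Gh_A07G138800 (0.304), Gh_A08G059100 (0.0871), Gh_A09G190300 (0.15), Gh_D02G249500 (0.0239), Gh_D05G121300 (0.189), Gh_D08G186400 (0.0503), Gh_D10G015500 (0.312) and Gh_D12G204100 (0.0859) turned sign under DESeq2 size factors from the listed genes, and no other alternative turned one. The edgeR refit called 126 of the named genes and missed 24, and not each of the 24 is marked above. DESeq2 missed 4 of the named genes, limma on log2(value + 1) missed 53 and limma on log2(value + 0.1) missed 105. Leaving out 1 library ended 35 of the edgeR calls for at least 1 library. Lost were 10, 28 and 26 without Xu142fl replicate 1, 2 and 3 and 27, 33 and 17 without Xu142 replicate 1, 2 and 3. Of 78 counts of group members in 1 direction, 65 stayed within 1.5 times when 1 gene per protein name was counted, 55 when the edgeR refit made the calls and 19 with a mean of at least 100. Counts below 10 reads per library and the unlisted genes limit what can be said of weak transcripts.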
